A study of Mus musculus with 18 samples.

Results

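Tmem18, Fgd6 and Ptpn23 are 3 genes whose array signal was lower in brains labelled ERbetaKO than in wild type brains, and they were chosen for that difference. Every probe set with one of these gene symbols in the platform annotation was taken, which gave 4 of the 45037 gene probe sets and 3 of the 18193 named genes. Tmem18 and Ptpn23 had 1 probe set each and Fgd6 had 2, of which the one with the higher mean represents the gene and the other is given as a check. A Tmem18, Fgd6 or Ptpn23 difference between ERbetaKO-labelled brains and any other group is therefore a description and carries no test. The ERalphaKO line, the sexes and the interactions of sex with genotype were not used to choose the genes and were tested. The ERalphaKO test shares its wild type arrays with the choice, and the tests were set with earlier results of these data known.

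The study measured RNA in whole brains of mice aged 8 weeks on 18 Affymetrix mouse expression arrays. The sample titles name the C57BL/6 strain for the wild type brains alone. The arrays fell into 3 genotypes of 6 samples, ERbetaKO (a knockout of estrogen receptor beta, gene Esr2), ERalphaKO (a knockout of estrogen receptor alpha, gene Esr1) and wild type, each with 3 females and 3 males. Differences in strain background between the lines were not tested. Signals are linear MAS5 probe set intensities, scaled by the authors so that the trimmed mean of each array was 500, and the table carries no detection calls, so a dim probe set is known only by its low signal. The labels do not say that the samples of a group came from separate animals, and p-values then cover only the spread among these samples, which may be technical. The labels give no allele, promoter or Cre driver for either knockout.

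The targeted genes were read first. The Esr2 probe set had a mean signal of 271 ± 98.0 in ERbetaKO-labelled arrays, 33.2 ± 22.6 in ERalphaKO-labelled arrays and 28.7 ± 11.4 in wild type arrays (SD, n = 6 each), so it was higher where its gene was labelled as knocked out. Its log2 difference between ERbetaKO-labelled and wild type arrays was 1.82 ± 0.16 (SE, adjusted p = 2.81e-05 in a limma fit of all probe sets). The main Esr1 probe set had 129 ± 21.6 in ERalphaKO-labelled arrays and 143 ± 35.9 in wild type arrays, and the difference of -0.09 ± 0.13 on the log2 scale did not pass (SE, adjusted p = 0.728 in limma). The 2 other Esr1 probe sets read higher in ERalphaKO-labelled than in wild type arrays, without passing in the limma fit of all probe sets. One had 229.8 ± 52.3 against 141 ± 50.6, a log2 difference of 0.54 ± 0.19 (adjusted p = 0.106), and the other 65.0 ± 20.6 against 38.6 ± 16.4, a difference of 0.33 ± 0.11 (adjusted p = 0.0970). Where these probe sets lie relative to any deleted part is not given in the sources used here, so none is a check of the deletion, and each direction below rests on the labels. The labelled sexes were borne out by Xist, at 4647 ± 432 in the 9 female arrays and 336 ± 84.4 in the 9 male arrays. All 5 neuronal markers read above the pseudocount of 63.63 described below on at least some arrays of every genotype, with summed signals of 44920 to 62224 in ERbetaKO-labelled, 36642 to 47983 in ERalphaKO-labelled and 49134 to 62955 in wild type brains.

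Tmem18 encodes a small multi-pass membrane protein of the nuclear envelope that is expressed widely in neurons. In humans, common variants close to the gene are associated with body weight. Fgd6 belongs to a family of guanine nucleotide exchange factors that carry FYVE and pleckstrin homology domains and switch on the small GTPase Cdc42, a regulator of actin and membrane traffic. Ptpn23, also called HD-PTP, is a Bro1-domain protein related to the non-receptor tyrosine phosphatases, and it works with the ESCRT complexes that sort ubiquitinated receptors on endosomes into vesicles for degradation.

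The genes lie on different chromosomes. Tmem18 is on mouse chromosome 12, which also carries Esr2, with 188 of that chromosome's 679 annotated coding genes between them. Fgd6 is on chromosome 10, which also carries Esr1, with 686 of 1001 coding genes between them. Ptpn23 is on chromosome 9, which carries neither receptor gene.

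The 250 bases upstream of each annotated start are shown because the 3 genes were chosen for one pattern across the arrays. These bases allow a look for estrogen response elements within that stretch alone. They were taken from RefSeq on build GRCm38.p6, where all 3 genes matched, and are written 5′ to 3′ on the gene's strand. Capitals mark matches to a GC box, GGGCGG, or a CCAAT box, read on either strand, so that a CCAAT box on the other strand appears as ATTGG.
Tmem18 (chr12:30584193-30584442, plus strand): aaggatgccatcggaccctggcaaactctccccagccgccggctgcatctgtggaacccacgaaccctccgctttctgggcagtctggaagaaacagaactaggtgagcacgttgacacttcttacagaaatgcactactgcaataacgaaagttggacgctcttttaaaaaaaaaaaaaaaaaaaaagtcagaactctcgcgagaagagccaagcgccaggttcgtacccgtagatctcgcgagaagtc
Fgd6 (chr10:94035751-94036000, plus strand): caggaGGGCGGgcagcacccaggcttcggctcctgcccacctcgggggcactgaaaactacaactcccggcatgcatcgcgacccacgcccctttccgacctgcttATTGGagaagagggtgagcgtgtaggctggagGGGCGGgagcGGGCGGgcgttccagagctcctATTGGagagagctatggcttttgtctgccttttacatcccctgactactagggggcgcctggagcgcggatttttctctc
Ptpn23 (chr9:110408211-110408460, minus strand): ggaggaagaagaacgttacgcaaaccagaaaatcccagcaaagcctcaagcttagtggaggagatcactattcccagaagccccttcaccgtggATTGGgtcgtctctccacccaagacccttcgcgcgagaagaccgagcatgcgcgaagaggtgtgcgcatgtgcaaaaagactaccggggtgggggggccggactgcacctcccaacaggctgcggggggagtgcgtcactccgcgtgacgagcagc

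The Fgd6 window held 3 GC boxes and 2 CCAAT boxes, the Ptpn23 window 1 CCAAT box, and the Tmem18 window neither motif. Over the 32851 promoter windows of the same length, 32.7% held a GC box and 33.8% a CCAAT box. The palindromic estrogen response element, read as GGTCA and TGACC with 3 free bases between them, occurred in 0.0639% of all windows, and its half-site GGTCA in 35.2%, both strands read. None of the 3 windows held either. The TATA motif TATAAA (12.4% of windows) and the E-box CACGTG (6.02%) were also not matched in them. With the full estrogen response element this rare, its absence from 3 windows is not informative. Sequence outside the windows was not searched, so nothing is read about regulation by either receptor. The full element contains the half-site and its complement, and a GC box and a CCAAT box share no overlapping match here. The Tmem18 window had a GC content of 49.6% and a long run of A, while the Fgd6 and Ptpn23 windows had 62.4% and 60%, beside a median of 52.4% over all windows.

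Tmem18 showed the widest gap of the 3 genes. The ERbetaKO-labelled females had signals of 233, 155 and 178 and the ERbetaKO-labelled males 182, 213 and 260.2. The ERalphaKO-labelled females had 889, 1006 and 836 and the males 899, 834 and 889.5. The wild type females had 806, 862 and 898 and the males 924, 892 and 1003. The highest ERbetaKO-labelled array therefore stood well below the lowest array of either other genotype, 834 in ERalphaKO-labelled and 806 in wild type brains, while these other arrays overlapped each other.

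The Tmem18 mean was 204 ± 39.1 in ERbetaKO-labelled, 892 ± 62.7 in ERalphaKO-labelled and 898 ± 65.5 in wild type brains (SD, n = 6 each). The ERbetaKO-labelled mean was thus 22.7% of the wild type mean and 22.8% of the ERalphaKO-labelled mean. On the scale log2(signal + 63.63), in which the added pseudocount is the 25th percentile of all non-control signals and shrinks differences of dim probe sets, the difference from wild type was -1.86 ± 0.087 (SE). It was -1.88 in females and -1.84 in males. Ordered by mean, the ERbetaKO-labelled females and males came lowest and overlapped each other, followed after the gap by wild type females, ERalphaKO-labelled males, ERalphaKO-labelled females and wild type males, each overlapping its neighbour.

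Ptpn23, the endosomal sorting protein, varied more between arrays of one group, relative to its mean. Signals were 109.6, 81.4 and 252 in ERbetaKO-labelled females and 147, 112 and 30.7 in ERbetaKO-labelled males. They were 278, 379 and 204 in ERalphaKO-labelled females and 285, 339 and 316 in ERalphaKO-labelled males. Wild type females had 295, 321 and 382 and wild type males 289, 353 and 386. All 6 ERbetaKO-labelled arrays lay below all 6 wild type arrays, but 1 of them, the female at 252, lay above the lowest ERalphaKO-labelled array at 204.

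The Ptpn23 mean was 122 ± 74.6 in ERbetaKO-labelled, 300.2 ± 60.1 in ERalphaKO-labelled and 338 ± 42.4 in wild type brains. This put the ERbetaKO-labelled mean at 36.2% of wild type and 40.7% of ERalphaKO-labelled. The log2 difference from wild type was -1.20 ± 0.20 (SE), with -0.99 in females and -1.41 in males. The order by mean ran from ERbetaKO-labelled males and females through ERalphaKO-labelled females and males to wild type females and males, and every neighbouring pair of groups overlapped.

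Fgd6, the Cdc42 exchange factor, had signals close to the filter on low values given below. Its brighter probe set had 24.8, 112 and 30.2 in ERbetaKO-labelled females and 52.1, 19.7 and 22.9 in ERbetaKO-labelled males. The ERalphaKO-labelled females had 332, 197 and 238 and the males 138, 228 and 162. The wild type females had 235, 222 and 318 and the males 169.9, 118 and 176. All 6 ERbetaKO-labelled arrays lay below all arrays of the other genotypes, yet the gap was narrow, with 112 in the second ERbetaKO-labelled female against 118 in the lowest wild type male.

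The brighter Fgd6 probe set averaged 43.7 ± 35.6 in ERbetaKO-labelled, 216 ± 68.6 in ERalphaKO-labelled and 207 ± 68.9 in wild type brains. The ERbetaKO-labelled mean was 21.2% of wild type and 20.2% of ERalphaKO-labelled. The log2 difference from wild type was -1.35 ± 0.18 (SE), -1.49 in females and -1.20 in males, and it was -1.51 when the ERbetaKO-labelled female at 112 was left out. In order of mean, ERbetaKO-labelled males and females were followed by wild type males, ERalphaKO-labelled males, ERalphaKO-labelled females and wild type females, and the sole pair of neighbours without overlap was ERbetaKO-labelled females and wild type males.

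The dimmer Fgd6 probe set did not follow the brighter one. It had 133, 115 and 94.5 in ERbetaKO-labelled females and 133, 93.7 and 112 in ERbetaKO-labelled males. It had 82.5, 127 and 103 in ERalphaKO-labelled females, 78.8, 68.2 and 115 in ERalphaKO-labelled males, 123, 109.7 and 125 in wild type females and 131, 102 and 92.6 in wild type males. All 3 genotypes overlapped, with the ERbetaKO-labelled mean at 99.8% of the wild type mean and a log2 difference of -0.00 ± 0.11 (SE). Across the 18 arrays the probe sets of this gene correlated at r = -0.16. Which Fgd6 transcripts each probe set reads is not given in the sources used here, so the lower signal belongs to 1 of 2 measurements of this gene.

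**Figure D1:**
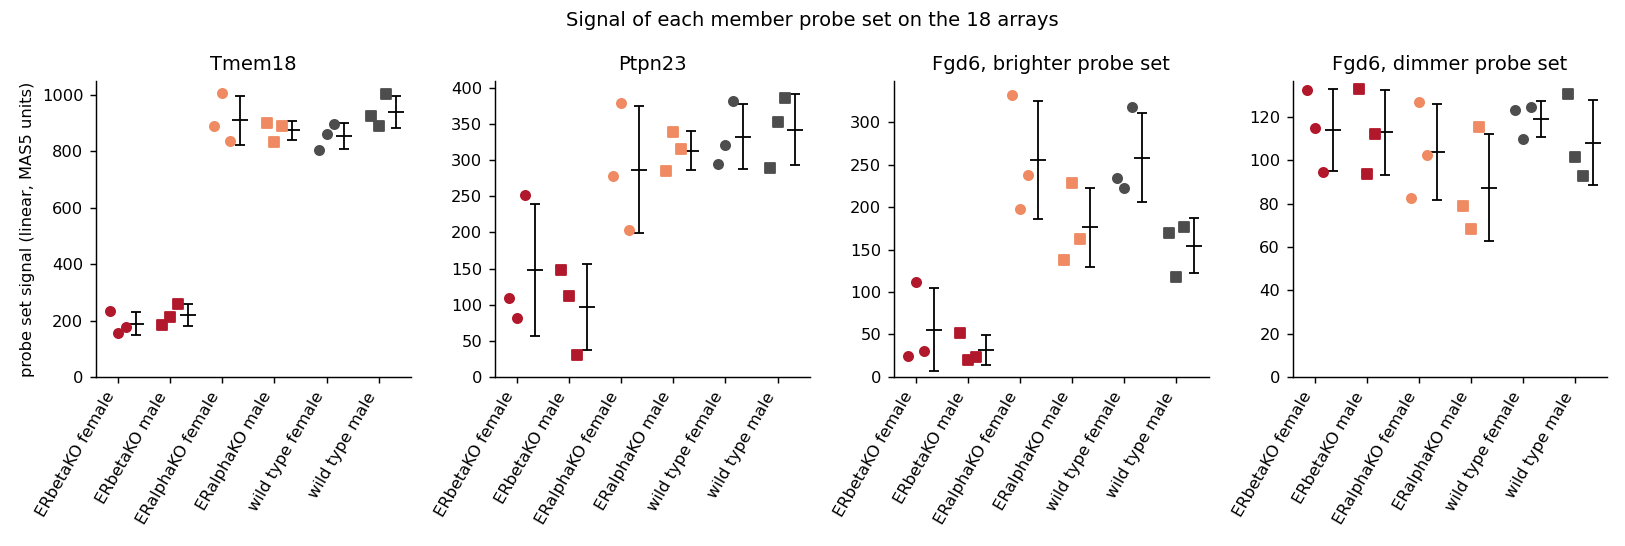
Linear MAS5 signal (vertical axis, starting at 0, with its own scale in each panel) of the 4 probe sets on each array, by labelled genotype and sex. Circles are females and squares males, and the bar beside each group is its mean ± SD (n = 3). The ERbetaKO-labelled arrays of Tmem18 sit between 155 and 260.2, below all others, and those of the dimmer Fgd6 probe set overlap the other groups.

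All 3 genes passed the filter on low signals that left 13072 genes for testing, each through its main probe set. The brighter Fgd6 probe set passed narrowly, with a mean log2 level of 7.61 against the cut-off of 7.58, and it did so through the genotypes in which it was high. The dimmer one, at 7.41, did not pass. Ranked by their log2 difference between ERbetaKO-labelled and wild type arrays, Tmem18 was the 3rd lowest of the 13072 genes, Fgd6 the 8th and Ptpn23 the 14th. All 6 ERbetaKO-labelled values were below all 6 wild type values for the 3 genes, as they were for 2.43% of all genes tested, and for Tmem18 and Fgd6 below all 6 ERalphaKO-labelled values, as for 2.26% of all genes. Nothing is read from these shares because the genes were chosen on the ERbetaKO-labelled arrays. Since the arrays measured whole tissue, fewer cells of a type and less RNA per cell cannot be told apart.

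In ERalphaKO-labelled brains none of the 3 genes passed the test. This comparison uses arrays that did not enter the choice, although it shares the wild type arrays with it. Tmem18 differed from wild type by -0.01 ± 0.087 on the log2 scale (SE, limma adjusted p = 0.972), with a 95% interval of -0.19 to 0.18. Fgd6 differed by 0.05 ± 0.18 (adjusted p = 0.890), with an interval of -0.32 to 0.43, and Ptpn23 by -0.15 ± 0.20 (adjusted p = 0.700), with an interval of -0.58 to 0.28. The dimmer Fgd6 probe set, fitted among all probe sets, differed by -0.16 ± 0.11 (adjusted p = 0.470).

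These values stand beside 876 genes, or 6.7% of those tested, that passed the threshold of an adjusted p under 0.05 between ERalphaKO-labelled and wild type arrays, 401 of them higher and 475 lower. In the same fit 980 genes, or 7.5%, passed between ERbetaKO-labelled and wild type arrays, 381 higher and 599 lower. Set directly against ERalphaKO-labelled brains, the ERbetaKO-labelled brains (2010 genes, or 15.4% of those tested, passed) had Tmem18 at -1.85, Fgd6 at -1.40, Ptpn23 at -1.05 and the dimmer Fgd6 probe set at 0.16 on the log2 scale. The Ptpn23 interval in the ERalphaKO line reaches -0.58, so a decrease of that size is not excluded.

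Sex was tested next. Averaged over the 3 genotypes, Fgd6 was 0.41 ± 0.14 higher in females than in males on the log2 scale (SE). The unadjusted p was 0.0114 and the limma adjusted p 0.974, so it did not pass. Its female mean was above its male mean in each genotype, with 55.8 and 31.6 in ERbetaKO-labelled, 256 and 176 in ERalphaKO-labelled and 258 and 155 in wild type brains, and the female and male arrays did not overlap in wild type brains alone. In ERbetaKO-labelled brains this rested on the female at 112, since the others, at 24.8 and 30.2, lay below the male mean. The dimmer Fgd6 probe set, fitted among all probe sets, differed between the sexes by 0.09 ± 0.094 (limma adjusted p = 0.959). Tmem18 differed between the sexes by -0.08 ± 0.071 (adjusted p = 0.982) and Ptpn23 by 0.08 ± 0.17 (adjusted p = 0.9999). Over all genes 4, or 0.0306%, passed, namely Xist and Eif2s3x, higher in females, and Kdm5d and Uty, lower in females.

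No dependence of the ERbetaKO-labelled difference on sex passed the test. The female difference minus the male difference was -0.04 ± 0.17 for Tmem18, -0.29 ± 0.35 for Fgd6 and 0.43 ± 0.41 for Ptpn23 (SE, limma adjusted p = 0.9999 each). In the ERalphaKO line the same quantity was 0.18 ± 0.17, -0.15 ± 0.35 and -0.10 ± 0.41 (adjusted p = 0.990, 0.994 and 0.998). Of all 13072 genes, 0 (0.0%) passed either interaction test in limma, while 442 had an unadjusted p under 0.05 for ERbetaKO and 673 for ERalphaKO. The interval for Ptpn23, -0.43 to 1.29, is wide.

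**Figure D2:**
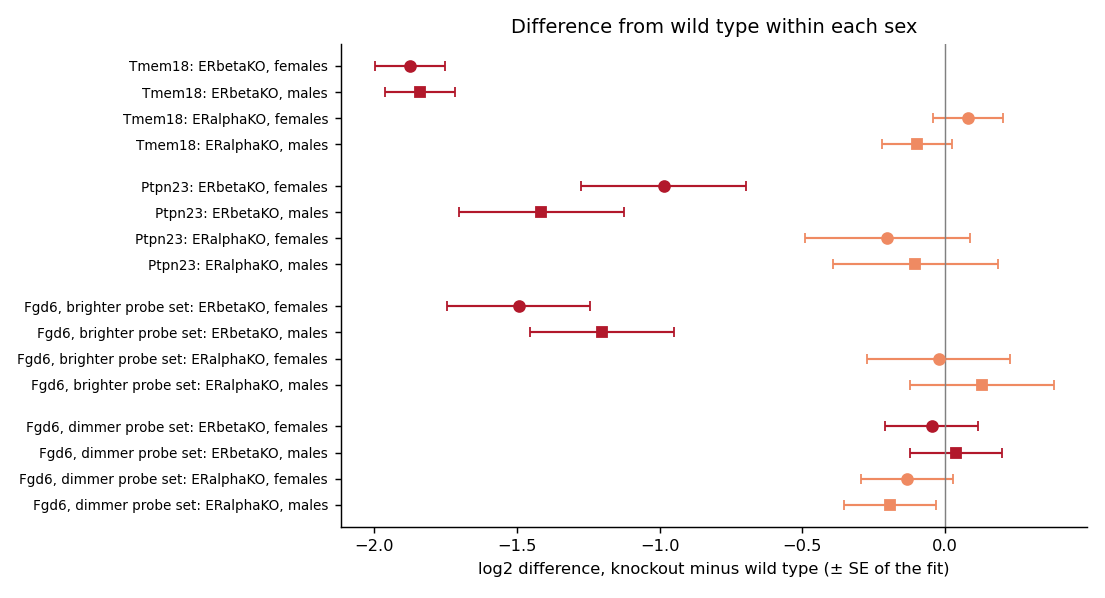
Log2 difference from wild type (horizontal axis) within females (circles) and males (squares) for each probe set in both knockout lines, with bars of ± SE from the fit (n = 3 arrays a group). The ERbetaKO-labelled points of Tmem18 lie at -1.88 and -1.84, and those of the dimmer Fgd6 probe set near 0.

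Several measures of the samples moved with genotype or varied within it, and the 3 genes are given beside them. The ratio of the 3′ to the 5′ Actb control probe set, a sign of RNA integrity and labelling, was 1.34 to 1.84 in ERbetaKO-labelled, 1.15 to 1.37 in ERalphaKO-labelled and 1.17 to 1.23 in wild type brains. The ERbetaKO-labelled female with the Fgd6 signal of 112 also had the ratio of 1.84, the highest of all. The ERbetaKO-labelled and wild type ranges of this ratio did not overlap, so the ratio and the genotype cannot be told apart between them. A fit with the ratio as a covariate was added after the data were seen. In it the difference from wild type was -1.69 ± 0.14 for Tmem18, -1.88 ± 0.27 for Fgd6 and -0.83 ± 0.34 for Ptpn23 (SE). Without the covariate the SEs were 0.087, 0.18 and 0.20. The dissections also differed in cerebellum, with Pcp2, a Purkinje cell gene, from 225 to 9849 in ERbetaKO-labelled, 209 to 7263 in ERalphaKO-labelled and 117 to 10790.3 in wild type brains.

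Pcp2 reached 500 on 3, 4 and 4 of the 6 arrays of these genotypes. On such arrays Tmem18 was 213 to 260.2 in ERbetaKO-labelled, 834 to 899 in ERalphaKO-labelled and 806 to 924 in wild type brains. On the arrays with little Pcp2 it was 155 to 182, 889.5 to 1006 and 898 to 1003. In ERbetaKO-labelled brains the Tmem18 signal was thus higher where Pcp2 was strong, without overlap, and in each class of arrays it remained far below the other genotypes. Fgd6 with strong Pcp2 was 19.7 to 24.8 in ERbetaKO-labelled, 138 to 332 in ERalphaKO-labelled and 118 to 235 in wild type brains. Ptpn23 there was 30.7 to 112, 204 to 339 and 289 to 353, again with the ERbetaKO-labelled arrays below all others. With little Pcp2 Fgd6 was 30.2 to 112, 162 to 197 and 176 to 318 in the same order of genotypes. In ERbetaKO-labelled brains Fgd6 was thus lower where Pcp2 was strong, without overlap, opposite to Tmem18. Ptpn23 with little Pcp2 was 81.4 to 252, 316 to 379 and 382 to 386, and its ERbetaKO-labelled ranges of the 2 classes overlapped.

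Over the arrays with strong Pcp2 alone, also a setting added after the data were seen, the difference from wild type was -1.65 for Tmem18, -1.50 for Fgd6 and -1.34 for Ptpn23. Among cell type markers, the summed signal of 5 astrocyte genes was 12039 to 19313 in ERbetaKO-labelled, 14193 to 20609 in ERalphaKO-labelled and 17037 to 20711 in wild type brains. Of the astrocyte genes, Gfap alone passed between ERbetaKO-labelled and wild type arrays (-1.23, limma adjusted p = 0.000184). Aqp4, Slc1a3, Aldh1l1 and Gja1 overlapped wild type there and did not pass (adjusted p from 0.0665 to 0.920). The sum of 5 endothelial genes, in the same order of genotypes, was 3641 to 3990, 3539 to 3920 and 4214 to 4705, so this sum lay below wild type in both knockout lines. Of these genes, Cldn5 alone was separate, at 1030 to 1291, 1025 to 1385 and 1430 to 1757. Pecam1, Flt1, Slco1a4 and Cdh5 each overlapped wild type in both lines. The sum of 6 pituitary genes ranged widely within every genotype, at 941 to 34292, 628 to 43846 and 735 to 35755. No marker of these lists was under the pseudocount on all arrays of a genotype, and their part in the differences of the 3 genes was not tested.

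The genes next to each of the 3 on its chromosome ranged from -0.32 to 0.83 in their log2 difference between ERbetaKO-labelled and wild type arrays. Of the 10 annotated coding genes on each side of the 3 genes, 60 in all, 48 were tested. Between ERbetaKO-labelled and wild type arrays 3 of them rose and 1 fell, beside 2.91% and 4.58% of all genes tested, and their median difference was 0.05 on the log2 scale, beside 0.01 for all genes. Between ERalphaKO-labelled and wild type arrays 3 rose and 3 fell, beside 3.07% and 3.63% of all genes, whose median there was -0.03.

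On chromosome 12, 16 neighbours of Tmem18 were tested. Adi1, an enzyme of methionine salvage lying 8 genes before it, had 1245 ± 71.3 in ERbetaKO-labelled, 679 ± 154 in ERalphaKO-labelled and 689.6 ± 180.2 in wild type brains, so that it rose by 0.83 ± 0.14 in ERbetaKO-labelled brains (log2, SE, limma adjusted p = 0.00362). Acp1, a low molecular weight phosphatase lying 2 genes after Tmem18, fell by 0.32 (adjusted p = 0.0170), with 2676 ± 251 against 3343 ± 165 in wild type. Its nearest tested neighbour on the other side, Pxdn, an extracellular peroxidase, differed by 0.06 (adjusted p = 0.822). The ERalphaKO line had a rise of Dld, a dehydrogenase subunit of mitochondrial complexes, by 0.32 (adjusted p = 0.0147) and a fall of Fam110c by 0.57 (adjusted p = 0.0436).

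On chromosome 10, 16 neighbours of Fgd6 were tested. Socs2, a suppressor of cytokine signalling, rose by 0.43 in ERbetaKO-labelled brains (limma adjusted p = 0.0472), and Ube2n, a ubiquitin-conjugating enzyme, rose by 0.35 (adjusted p = 0.00555). Ube2n also rose in the ERalphaKO line, by 0.28 (adjusted p = 0.0199), together with the mitochondrial ribosomal gene Mrpl42 by 0.32 (adjusted p = 0.00583), while the complex I gene Ndufa12 fell by 0.27 (adjusted p = 0.0490). The genes directly beside Fgd6, Vezt of adherens junctions and the orphan nuclear receptor Nr2c1, differed from wild type by 0.10 and -0.27 in ERbetaKO-labelled brains (adjusted p = 0.519 and 0.475).

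Of 16 tested neighbours of Ptpn23 on chromosome 9, 0 passed between ERbetaKO-labelled and wild type arrays. The adjacent genes Scap, the escort protein of the sterol-regulated SREBP factors, and Ngp, a neutrophil granule protein, differed by -0.08 and 0.25 (limma adjusted p = 0.595 and 0.326). Smarcc1, a chromatin remodelling subunit, fell by 0.53 in the ERalphaKO line (adjusted p = 0.0163). The calls on Socs2, Fam110c and Ndufa12 were lost on leaving out any of 8, 9 and 11 of the 12 arrays compared, with adjusted p up to 0.1001, 0.0993 and 0.113. With strong Pcp2 arrays alone 0 neighbours were called in either line, and with the Actb covariate 1 in the ERbetaKO line and 3 in the ERalphaKO line.

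**Figure D3:**
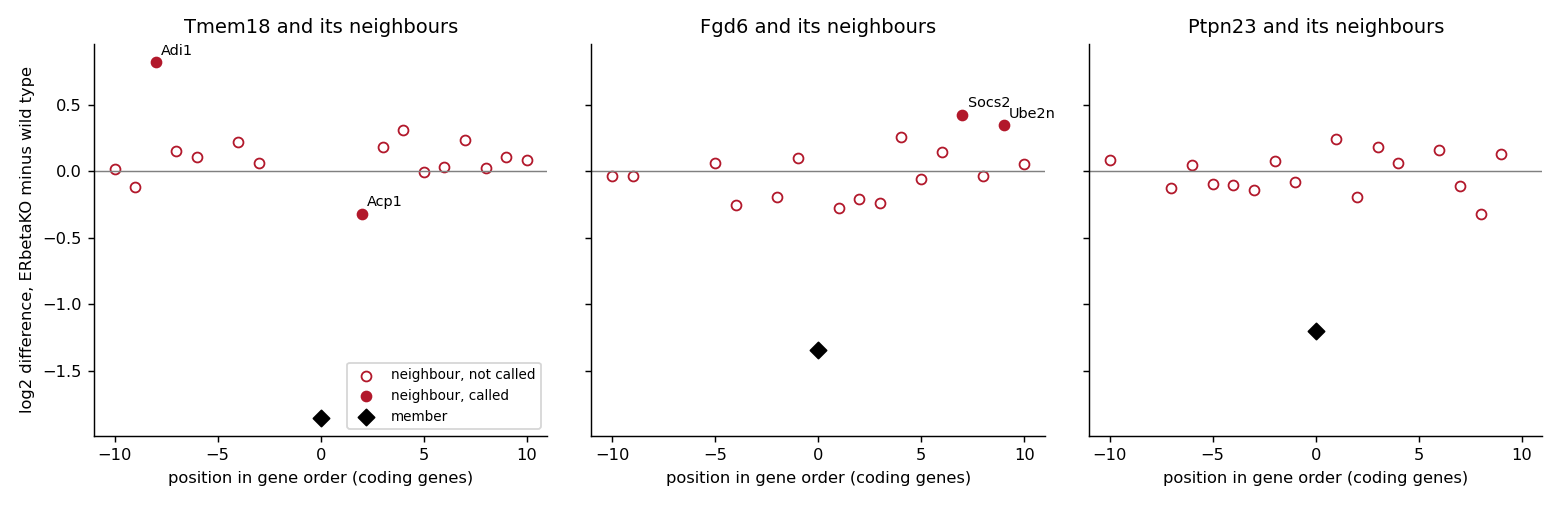
Log2 difference between ERbetaKO-labelled and wild type arrays (vertical axis) for each tested coding gene within 10 places of Tmem18, Fgd6 and Ptpn23 in gene order (horizontal axis, in genes, 0 being the gene itself). Diamonds are the 3 genes, filled circles neighbours that passed the limma test and open circles those that did not. The neighbours range from -0.32 to 0.83. The 3 genes lie at -1.86, -1.35 and -1.20 and were chosen for this difference, so their distance from the neighbours is not a result.

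Genes that work with Ptpn23 on endosomes were examined as a list of 35 ESCRT and endosomal sorting genes, 33 of which were tested. In ERbetaKO-labelled against wild type arrays 1 rose and 2 fell, or 9.09% of the list beside 7.5% of all genes, and the median difference was -0.03 on the log2 scale. Stam2, a subunit of the ESCRT-0 complex that binds ubiquitinated cargo, rose by 0.38 (limma adjusted p = 0.0118), with signals of 1169 ± 134 in ERbetaKO-labelled and 881 ± 54.0 in wild type arrays. Hgs, its partner in that complex, fell by 0.21 (adjusted p = 0.0244), and Chmp1a, an ESCRT-III protein, fell by 0.55 (adjusted p = 0.0233), with 826 ± 254 against 1197 ± 129.

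Of the ESCRT genes, 1 rose and 3 fell in the ERalphaKO line, or 12.1% beside 6.7% of all genes, with a median of -0.03. Chmp5, another ESCRT-III protein, fell by 0.30 (limma adjusted p = 0.0331). The others, named here after their values were seen, were Chmp1b, which rose by 0.34, and Chmp4b and Vta1, which fell by 0.28 and 0.25 (adjusted p = 0.0412, 0.0424 and 0.0418). The Chmp1a call was lost without the third wild type female (adjusted p = 0.0510) and the Hgs call without any of 3 arrays (up to 0.0639), with quantile normalization (0.0576) and in a fit of only the groups compared (0.0602), and each of the ERalphaKO calls was lost without any of 8 to 10 of the 12 arrays (up to 0.0994). With strong Pcp2 arrays alone 1 gene of the list was called in the ERbetaKO line and 0 in the ERalphaKO line, and with the Actb covariate 0 in either.

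The non-receptor tyrosine phosphatases, the family to which Ptpn23 is related, had 14 tested genes of 16 listed. Between ERbetaKO-labelled and wild type arrays 0 passed in limma, beside 7.5% of all genes, and the median difference was 0.05. The smallest p-values belonged to Ptpn6, a phosphatase of blood and immune cells (0.25, adjusted p = 0.115), Ptpn11, a positive regulator of growth factor signalling (-0.18, adjusted p = 0.128), and Ptpn1, which acts on the insulin and leptin receptor pathways (0.24, adjusted p = 0.140), all 3 with an unadjusted p under 0.05. In the ERalphaKO line Ptpn12, a phosphatase of cytoskeletal adaptor proteins, rose by 0.34 (adjusted p = 0.0207), a call lost without any of 3 arrays (up to 0.0526), and the median was 0.12. That gene is 7.14% of the list, beside 6.7% of all genes. With strong Pcp2 arrays alone, or with the Actb covariate, 0 of the list passed in that line.

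The relatives of Fgd6 and other regulators of Cdc42 comprised 39 genes, 35 of them tested. Between ERbetaKO-labelled and wild type arrays 0 rose and 2 fell, or 5.71% of the list beside 7.5% of all genes, with a median of -0.04. Srgap1, a GTPase activating protein of the Slit and Robo pathway, fell by 0.48 (limma adjusted p = 0.00832), with signals of 512 ± 68.3 against 735 ± 78.3 in wild type. Fgd1, an exchange factor of the same family, fell by 0.34 (adjusted p = 0.0331), with 281 ± 33.9 against 372 ± 33.8. Cdc42ep4, a Cdc42 effector, differed by -0.55 and did not pass (adjusted p = 0.0965).

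Of the Cdc42 regulators, 2 rose and 1 fell in the ERalphaKO line, or 8.57% beside 6.7% of all genes, with a median of 0.02. Dock11, an exchange factor for Cdc42, rose by 0.52 (limma adjusted p = 0.00704). Fgd4, another member of the family, rose by 0.51 (adjusted p = 0.0163) and Arhgap32, a GTPase activating protein, fell by 0.77 (adjusted p = 0.0483), both named after their values were seen. The calls on Fgd1 and Arhgap32 were lost without any of 9 and 10 of the 12 arrays (up to 0.0777 and 0.113). Strong Pcp2 arrays alone called 0 genes in either line, and with the Actb covariate 0 in the ERbetaKO line and 1 in the ERalphaKO line.

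Tmem18 was set beside 30 nuclear envelope genes, of which 27 were tested. Between ERbetaKO-labelled and wild type arrays 0 rose and 2 fell, or 7.41% of the list beside 7.5% of all genes, with a median of 0.05. Tor1aip1, an inner membrane protein that activates torsin ATPases, fell by 0.65 (limma adjusted p = 0.000899), with 615 ± 58.9 in ERbetaKO-labelled, 819 ± 119 in ERalphaKO-labelled and 1002 ± 67.0 in wild type brains. Lemd2, a LEM-domain protein of the same membrane, fell by 0.34 (adjusted p = 0.00967), and the torsin Tor1b differed by 0.27 without passing (adjusted p = 0.0632).

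Nuclear envelope genes in the ERalphaKO line comprised 0 that rose and 2 that fell, or 7.41% of the list beside 6.7% of all genes, with a median of 0.04. Banf1, a DNA-bridging protein of the envelope, fell by 0.24 (limma adjusted p = 0.0239) and Tmem201, named after its value was seen, fell by 0.56 (adjusted p = 0.0244), each call being lost without any of 4 of the 12 arrays (up to 0.0671 and 0.0591). With strong Pcp2 arrays alone 1 gene of the list was called in the ERbetaKO line and 0 in the ERalphaKO line. With the Actb covariate these counts were 0 and 1.

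The genes beside human body weight variants, to which Tmem18 belongs by position, numbered 32, with 27 tested. In ERbetaKO-labelled against wild type arrays 2 rose and 2 fell, or 14.8% of the list beside 7.5% of all genes, with a median of 0.02. Rasal2, a Ras GTPase activating protein, rose by 0.34 (limma adjusted p = 0.0272) and Lrp1b, a receptor of the LDL receptor family, rose by 0.30 (adjusted p = 0.0400). Gprc5b, an orphan receptor, fell by 0.63 (adjusted p = 0.0417), with 1044 ± 297 against 1653 ± 453, and Faim2, an inhibitor of Fas-mediated apoptosis, fell by 0.21 (adjusted p = 0.0437). Faim2 also fell in the ERalphaKO line, by 0.22 (adjusted p = 0.0346), where 0 rose, the 1 call was 3.70% of the list beside 6.7% of all genes, and the median was -0.03.

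Those calls were close to the threshold. Rasal2 was lost without any of 5 of the 12 arrays, Faim2 without any of 8, and Lrp1b and Gprc5b without any of 9 (adjusted p up to 0.0745, 0.0989, 0.0988 and 0.0930), and the ERalphaKO call on Faim2 without any of 9 (up to 0.0795). Strong Pcp2 arrays alone called 1 gene in the ERbetaKO line and 0 in the ERalphaKO line, and with the Actb covariate 0 in either. Across all 5 lists the medians lay within 0.05 of 0 in the ERbetaKO line, beside a median of 0.01 over all genes. The 3 genes themselves differed by -1.86 to -1.20, but they were chosen for that difference, so nothing is read from the contrast with the lists.

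**Figure D4:**
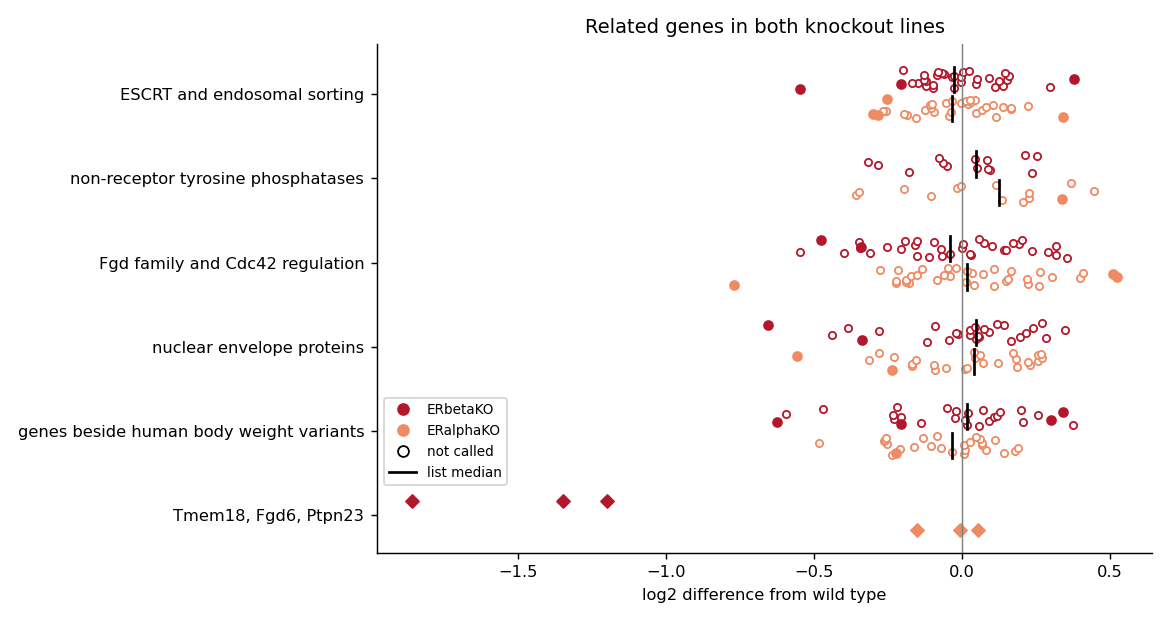
Log2 difference from wild type (horizontal axis) of each tested gene in the 5 lists, ERbetaKO-labelled above ERalphaKO-labelled in each row, with a vertical bar at the list median. Filled circles passed the limma test and open circles did not; diamonds are Tmem18, Fgd6 and Ptpn23, at -1.86, -1.35 and -1.20 in ERbetaKO-labelled and -0.01, 0.05 and -0.15 in ERalphaKO-labelled brains.

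Over the 18 arrays the levels of the 3 genes correlated with each other, at r = 0.84 for Tmem18 and Fgd6, 0.81 for Tmem18 and Ptpn23 and 0.72 for Fgd6 and Ptpn23. These points share the genotype difference on which the genes were chosen. After each group's mean was subtracted the same values were -0.53, -0.17 and -0.12, and no pair remained positive.

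The genes with the most similar profiles were named by their correlation of log2 levels with each gene over the 18 arrays. For Tmem18 they were Ring1, a Polycomb ubiquitin ligase (r = 0.93), Mboat2, a lysophospholipid acyltransferase (0.92), Ttyh1, a membrane protein of glia and neural progenitors (0.92), Gfap, the intermediate filament of astrocytes (0.91), and Podxl2, a sialomucin (0.88). Gfap, for example, had 1193 ± 237 in ERbetaKO-labelled, 2517 ± 510 in ERalphaKO-labelled and 2869 ± 354 in wild type brains, and Podxl2 had 1106 ± 150.2, 1986 ± 320.0 and 2353 ± 372. Their lower values in ERbetaKO-labelled brains follow from the way they were picked.

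For Fgd6 the closest profiles were those of Tafa5, a secreted neuronal protein (r = 0.88), Slc9a3r1, a PDZ scaffold protein (0.87), Ttyh1 (0.87), Nacad (0.86) and Rps6kb2, a ribosomal protein S6 kinase (0.86). Nacad had 347 ± 60.5 in ERbetaKO-labelled, 549 ± 90.1 in ERalphaKO-labelled and 555 ± 26.4 in wild type brains. For Ptpn23 they were Ttyh1 (0.89), Usp21, a deubiquitinase (0.87), Vegfb, a growth factor (0.86), Tnfaip1, an adaptor of a ubiquitin ligase (0.86), and Fam219a (0.86). Ttyh1 was among the 5 for all 3 genes, with 2043 ± 150.0 in ERbetaKO-labelled, 2911 ± 215 in ERalphaKO-labelled and 2913 ± 149 in wild type brains.

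Other genes came closest once group means were subtracted, which leaves the variation between arrays of one group. Tmem18 then went with Glg1, a Golgi glycoprotein (r = 0.91), Camk2a, a kinase of forebrain excitatory neurons (0.90, from a probe set with 5383 ± 1742 in ERbetaKO-labelled, 2900.0 ± 418 in ERalphaKO-labelled and 4265 ± 729.9 in wild type brains), and Chchd1 (0.87). Fgd6 went with Col16a1, a collagen (0.84), Mgat4a, a Golgi glycosyltransferase (0.79), and Taf1, a general transcription factor (0.78). Ptpn23 went with Uba7, an activating enzyme for ISG15 (0.86), Nupl1, a nucleoporin (0.85), and N4bp3 (0.83). No gene was named for more than 1 of the 3 by this measure. The correlations given are the highest among the 13072 genes tested, and whether they exceed what chance gives over so many genes was not tested.

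**Figure D5:**
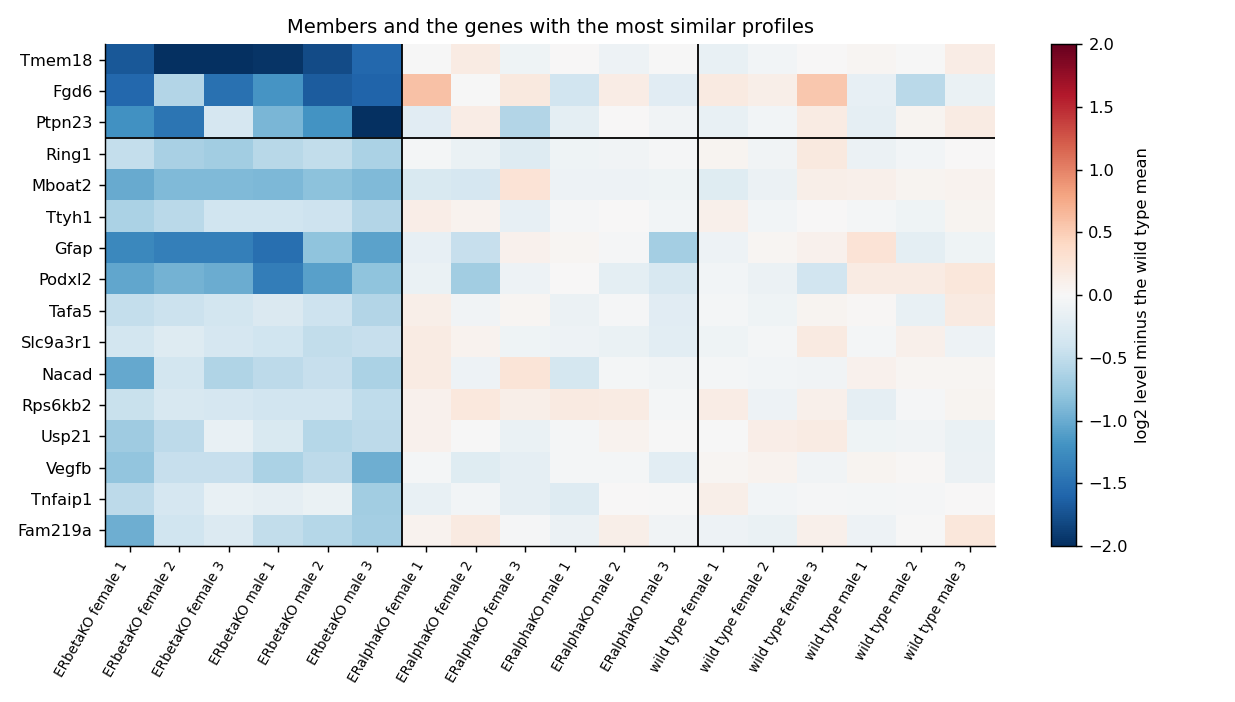
Log2 level minus the wild type mean (colour, with the scale ending at -2 and 2) on each of the 18 arrays (columns, by labelled genotype) for Tmem18, Fgd6 and Ptpn23 (top) and the genes with the most similar profiles (below). The ERbetaKO-labelled columns are blue in every row because the rows were chosen for this pattern; single arrays such as the second ERbetaKO-labelled female for Fgd6 are paler than the rest of their group.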

How the data were processed

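RNA of whole mouse brains was measured on 18 arrays, 3 per genotype and sex. The deposited intensity table holds linear signals of 45101 probe sets, made by the authors with MAS5, per the submitters' processing notes; its version is not given in the sources used here. Columns were read as deposited, 64 control probe sets were left out, and arrays correlated at 0.953 to 0.985. Symbols came from the platform annotation, updated through RefSeq for 34741 probe sets by entrez identifier and 143 by symbol. Where a gene, of 18193, had several probe sets, the one highest on average in log2 represents it.

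Signals were transformed as log2(signal + 63.63). Genes reaching the 40th percentile, 13072 in number, entered a limma 3.58.1 fit (R 4.3.3) with a mean for each of 6 groups, an intensity trend and 12 residual degrees of freedom, and Benjamini-Hochberg adjustment at 0.05. Esr2, the dimmer Fgd6 probe set and the minor Esr1 probe sets were read from a fit of all probe sets. The script was tested on simulated data. Precision is limited by the number of arrays. The 3 genes, the lists and the tests were chosen with earlier results of these data known.

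Genes were named by a rule: the 3 genes, Esr1 and Esr2, the 3 list members with the smallest p in ERbetaKO against wild type and the 1 in ERalphaKO, the nearest tested neighbours and any called within 10 genes, and the 5 and 3 most correlated genes. Exceptions are stated where they occur, and the sex-linked genes are named because 4 were called. Same-numbered arrays did not deviate together throughout: of 18 such pairs of arrays, 6 correlated above 0.1 (range -0.40 to 0.43). Between wild type and ERbetaKO-labelled arrays every same-numbered pair was positive, from 0.03 to 0.43, while the other pairs of genotypes held both signs. The main fit did not use the numbers to pair samples. Alternatives covered the pseudocount, scaling, filter, probe sets, trend, array weights, groups fitted, a block for the replicate number, and leaving out each array. Python 3.11.15 with matplotlib 3.10.9 drew the figures.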

Additional observations from a re-analysis of the deposited data

Results flagged for a closer look

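In 12 of 210 tests of 6 arrays of one genotype, the highest or lowest array stood apart from the other 5 by Dixon's test at the 95% level, a share near the 1 in 20 that chance gives. Among the 3 genes this held once, for the brighter Fgd6 probe set, where the second ERbetaKO-labelled female had 112.4 and the next highest array 52.1. The same array was highest for Mgat4a, at 825.9 against a next value of 649.4. Mgat4a was picked for its correlation with Fgd6 within groups, so this is not a separate sign about that array. Of the targeted genes, Esr2 was highest at 78.2 in the first ERalphaKO-labelled female, with 31.9 next, and at 50.8 in the third wild type male, with 28.7 next. The main Esr1 probe set was lowest at 86.8 in the third ERalphaKO-labelled male, with 127.4 next.

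Among related and neighbouring genes, Cdc42ep4 reached 984.3 in the first ERbetaKO-labelled female, with 558.5 next. Nr2c1 was lowest at 85.9 in the third ERbetaKO-labelled female, with 232.9 next. Gprc5b was lowest at 1108.2 in the second ERalphaKO-labelled female, with 1702.7 next, and Mboat2 was highest at 1804.2 in the third, with 1386.2 next. In wild type arrays Adi1 was highest at 1032.0 in the second male, with 694.9 next. Camk2a was highest at 5674.9 in the third wild type female, with 4315.3 next, and Tnfaip1 at 1241.4 in the first, with 1151.3 next.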

How the results depend on the processing

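The Fgd6 result depended on the probe set. The dimmer one differed by -0.003 from wild type and 0.16 from ERalphaKO-labelled arrays, and the settings below follow the main probe sets. By these, Tmem18, Fgd6 and Ptpn23 were lower in ERbetaKO-labelled brains under every setting in which they were fitted, and the size moved with the pseudocount. With a pseudocount of 1 the differences from wild type were -2.15, -2.44 and -1.70 and those from ERalphaKO-labelled arrays -2.15, -2.51 and -1.52. With the pseudocount at the median signal they were -1.46, -0.74 and -0.77 from wild type, and -1.45, -0.78 and -0.66 from ERalphaKO-labelled arrays. With strong Pcp2 arrays alone Tmem18 differed by -1.65 and -1.64 from wild type and ERalphaKO-labelled arrays, and Fgd6 by -1.74 from the ERalphaKO-labelled ones. With the Actb covariate the wild type differences were -1.69 ± 0.14 (Tmem18), -1.88 ± 0.27 (Fgd6) and -0.83 ± 0.34 (Ptpn23, SE). Those from ERalphaKO-labelled arrays were -1.73 ± 0.12, -1.77 ± 0.22 and -0.79 ± 0.28. The Actb ratio did not overlap between ERbetaKO-labelled and wild type arrays, so this fit cannot tell it apart from genotype. Without one array at a time the differences from wild type lay between -1.92 and -1.81 for Tmem18, -1.51 and -1.26 for Fgd6 and -1.37 and -1.03 for Ptpn23, and those from ERalphaKO-labelled arrays between -1.91 and -1.80, -1.56 and -1.31, and -1.21 and -0.88. Fgd6 and Ptpn23 fell below a filter at the 60th percentile and were not tested there, and a fit of only the groups compared does not apply to the sex average. No setting called any of the 3 in the ERalphaKO line, by sex or by interaction. In the ERalphaKO line without one array at a time they lay between -0.04 and 0.02, -0.03 and 0.12, and -0.24 and -0.06. By sex these ranges were -0.12 to -0.04, 0.31 to 0.47 and -0.04 to 0.16.

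Counts of called genes moved more. Between ERbetaKO-labelled and wild type arrays they were 2113 over all probe sets, 1547 with array weights, 235 with strong Pcp2 arrays alone, 122 with the Actb covariate and 500 (without the first ERbetaKO-labelled male) to 1068 without one array at a time. Between ERalphaKO-labelled and wild type arrays they were 2450, 1559, 75, 423 and 396 (without the second ERalphaKO-labelled male) to 1082, and 1460 with a cerebellar score as covariate. Between ERbetaKO-labelled and ERalphaKO-labelled arrays they were 4173 over all probe sets, 3827 with weights, 756 with the Actb covariate and 1183 (again without the second ERalphaKO-labelled male) to 2248 without one array. By sex, 2 genes were called with the 60th percentile filter or strong Pcp2 arrays alone, 10 over all probe sets and 4 to 5 without one array. The interactions called 0 to 2 genes (ERbetaKO) and 0 to 3 (ERalphaKO) without one array, and 1 for ERalphaKO with no filter. The causes were not tested; the strong Pcp2 setting also has fewer arrays.

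For the lists in the ERbetaKO line, strong Pcp2 arrays alone called 1 ESCRT, 0 Cdc42, 1 nuclear envelope, 1 body weight and 0 neighbouring genes, and the Actb covariate 0, 0, 0, 0 and 1. Array weights called 6 Cdc42 and 6 nuclear envelope genes, and no filter 1 Cdc42 and 1 body weight gene. Quantile normalization and a fit of only the groups compared each called 1 body weight gene. In the ERalphaKO line strong Pcp2 arrays alone called 0 genes of every list, and the Actb covariate 0 ESCRT, 0 phosphatase, 1 Cdc42, 1 nuclear envelope, 0 body weight and 3 neighbouring genes. Quantile normalization called 1 ESCRT and 0 body weight genes, no filter 1 ESCRT gene, and no intensity trend or only the groups compared 2 ESCRT genes. The phosphatases had 2 calls with a pseudocount of 1, the 60th percentile filter, all probe sets, array weights or only the groups compared, and 3 with the cerebellar score. Nuclear envelope genes had 5 calls with array weights and 4 with the cerebellar score. Of 15 called list and neighbouring genes named in the ERbetaKO line, 5 lost the call with quantile normalization, 5 with no filter, 5 with only the groups compared, 2 with no intensity trend, 1 with array weights and 6 with the replicate block. In the ERalphaKO line these were 5, 6, 4, 4, 0 and 4 of 17. Without one array at a time the ERbetaKO counts were 2 to 4 (ESCRT), 0 to 0 (phosphatases), 1 to 3 (Cdc42), 2 to 3 (nuclear envelope), 0 to 4 (body weight) and 3 to 4 (neighbours), and the ERalphaKO counts 0 to 4, 0 to 2, 2 to 3, 0 to 2, 0 to 1 and 4 to 6.

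With the replicate number as a block the differences of Tmem18, Fgd6 and Ptpn23 from wild type stayed at -1.86, -1.35 and -1.20, with SEs of 0.0905, 0.202 and 0.219. The block called 786 genes in the ERbetaKO line and 790 in the ERalphaKO line, and among the lists 2 ESCRT (Hgs was lost, adjusted p = 0.0532), 1 Cdc42 and 2 body weight genes in the ERbetaKO line and 2 ESCRT genes in the ERalphaKO line. Dim probe sets limit these data: the Fgd6 signal in ERbetaKO-labelled arrays was mostly under the pseudocount of 63.63, where its size has little meaning.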
